A study of Drosophila melanogaster with 3 samples.

Results

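The 880 sites described here were intronic loci of the protein CG8119 that lay more than 2000 and at most 10000 bp from the nearest annotated transcript start of any gene. They were 880 of 3746 loci, or 23.5%, found in all 3 replicates of a chromatin immunoprecipitation sequencing (ChIP-seq) study of whole Drosophila melanogaster prepupae aged 1 day. The animals carried an insertion that makes CG8119 as a fusion with enhanced green fluorescent protein (CG8119-eGFP), and an anti-GFP antibody pulled down the fusion protein from sonicated chromatin. All 3 samples are biological replicates of this 1 group, their sex was not collected, and no untreated or untagged group was analysed here. Chromatin came from all tissues of the animal together, so a site used in few cells and a weakly used site cannot be told apart.

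To find the loci, the summits of the 3 thresholded peak lists were joined wherever neighbouring summits lay within 150 bp. Loci with a summit of every replicate were kept, and the median summit was taken as the centre. A centre had to fall inside a gene body on genome build dm6 and outside every annotated exon. The number of peaks in a list was 7279, 6769 and 4608 for replicates 1 to 3, and read depth is unknown, so the list length is the only trace of it. The rule used position and presence in all 3 thresholded lists, and made no further use of the height of the signal. The threshold had already cut longer ranked lists of 45667, 44378 and 28104 peaks in replicates 1 to 3, and membership may depend on the signal through it.

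CG8119 is a little-studied fly gene. Introns of flies often hold enhancers, stretches of DNA where transcription factors bind and from which the activity of a promoter can be raised at a distance, and long first introns are a usual place for them. In the prepupa a pulse of the steroid hormone ecdysone drives the change from larval to adult tissues, and many genes that respond to it have long introns and several starts. A peak marks DNA that was enriched with the tagged protein. It does not show that the protein acts on a gene from there.

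The sequences at the centres of the strongest loci are shown because base composition is the feature that most of the loci had in common. The strength of a locus was expressed as a percentile: its signal was ranked within each replicate's peak list and the 3 percentiles were averaged. The 151 bases around the centre of 6 of the 9 strongest loci follow, from 5′ to 3′ on build dm6 (RefSeq Release 6), with runs of at least 7 bases of A and T in capitals.
CG32486 (chr3L:3060722-3060872, plus strand): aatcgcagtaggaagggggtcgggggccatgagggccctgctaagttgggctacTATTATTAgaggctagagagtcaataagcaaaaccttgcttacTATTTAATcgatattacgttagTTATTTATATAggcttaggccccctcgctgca
JIL-1 (chr3L:11084705-11084855, plus strand): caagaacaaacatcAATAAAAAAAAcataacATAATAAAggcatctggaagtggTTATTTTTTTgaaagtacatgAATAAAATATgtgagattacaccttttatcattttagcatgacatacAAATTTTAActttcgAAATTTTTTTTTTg
Raf (chrX:2300619-2300769, plus strand): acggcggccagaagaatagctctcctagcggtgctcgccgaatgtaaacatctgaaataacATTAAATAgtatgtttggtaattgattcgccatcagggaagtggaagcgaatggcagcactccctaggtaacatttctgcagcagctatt
lncRNA:CR45668 (chrX:5896095-5896245, plus strand): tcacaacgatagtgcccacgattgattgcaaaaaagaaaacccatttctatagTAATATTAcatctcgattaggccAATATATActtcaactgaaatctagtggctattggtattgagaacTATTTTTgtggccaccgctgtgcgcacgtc
trx (chr3R:14277988-14278138, plus strand): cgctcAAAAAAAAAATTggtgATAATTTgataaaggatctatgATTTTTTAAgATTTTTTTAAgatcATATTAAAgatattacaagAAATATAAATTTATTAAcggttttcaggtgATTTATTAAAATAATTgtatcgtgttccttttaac
simj (chr3L:10682893-10683043, plus strand): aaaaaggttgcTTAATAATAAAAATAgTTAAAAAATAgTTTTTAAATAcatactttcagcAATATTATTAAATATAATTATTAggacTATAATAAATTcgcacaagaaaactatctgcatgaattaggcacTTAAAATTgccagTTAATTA
The next pair is shown for AAAATAT, the word that led a ranking of all 7-base words described further on. Within 100 bp of the centre, a wider window than the 151 bases printed, each held 3 copies of it or its reverse complement. Not all of these copies fall within the printed bases, and the capitals again mark runs of A and T.
lncRNA:CR44357 and CG1677 (chrX:7294275-7294425, plus strand): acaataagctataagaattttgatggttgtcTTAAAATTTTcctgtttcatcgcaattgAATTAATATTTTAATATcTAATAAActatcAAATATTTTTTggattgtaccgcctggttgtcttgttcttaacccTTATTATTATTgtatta
Nuak (chr3R:10268546-10268696, plus strand): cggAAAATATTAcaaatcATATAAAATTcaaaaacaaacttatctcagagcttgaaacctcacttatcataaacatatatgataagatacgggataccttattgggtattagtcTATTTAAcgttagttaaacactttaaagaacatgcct
The windows at trx and simj were 21.2% GC and held A/T runs of up to 17 and 23 bases. Those at CG32486 and Raf were 45.7% GC, with no run longer than 11 and 8 bases. The strongest sites therefore differed among themselves in the feature that was common over the whole set.

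The strongest of the 880 loci lay in the first intron of CG12769 on 2R (8060835 to 8061230). Replicates 1 to 3 gave it signals of 1136, 1119 and 1013 in the authors' units, and it ranked 8 of all 3746 shared loci. The centre was 2471 bp upstream of an annotated start of the same gene. The second was in the first intron of CG32486 on 3L, with signals of 848, 669 and 707 in replicates 1 to 3 and the nearest start, that of CG16753, 5718 bp away.

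Several of the next sites lay in genes of chromatin and signalling proteins. JIL-1, a kinase of histone H3, had a locus in a later intron with signals of 789, 687 and 547 in replicates 1 to 3. Raf, the kinase between Ras and the MAP kinase cascade, had 783, 596 and 587, at 5228 bp downstream of its start. At both loci replicate 1 gave the highest value and replicate 3 the lowest, as at 14 of the 15 strongest for replicate 3, CG32486 being the exception. dnr1, an inhibitor in the Imd immune pathway, had 848, 673 and 473. The long non-coding RNA gene lncRNA:CR45668 had 668, 546 and 521. trx, a histone methyltransferase that keeps homeotic genes active, had 634, 580 and 493 at 8840 bp downstream of a start. Only at mam and simj among the 15 strongest was replicate 2 the highest. mam, a coactivator of Notch, held the eighth and the fifteenth locus, 622 bp apart, with 537, 649 and 489 at the first of them and 527, 472 and 422 at the other. simj, which encodes a subunit of the Mi-2 nucleosome remodelling complex, had 555, 630 and 449.

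The remaining loci of the 15 strongest were in CG32264, Eip75B, Tlk, Psc and kibra. Eip75B, a nuclear receptor gene switched on by ecdysone, had signals of 651, 477 and 456, with the centre 9356 bp upstream of one of its starts. Psc, a subunit of Polycomb repressive complex 1, had 621, 526 and 391. kibra, a scaffold that activates the Hippo pathway, had 541, 510 and 409. CG32264 had 624, 512 and 443, and Tlk, a chromatin kinase, had 643, 501.3 and 440. Across the 15 loci the signal ran from 391 to 1136, replicate 1 was highest at 13 and replicate 3 was lowest at 14. The scale of the signal may differ between the lists. The nearest start belonged to the host gene at 10 of the 15 and to another gene at 5.

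At the other end, the weakest locus lay where SKIP and lncRNA:CR45224 overlap, with signals of 51.7, 51.8 and 66.95 in replicates 1 to 3. Ziz had 49.6, 72.6 and 53.6, and a site in pnt, an Ets factor gene of the EGFR pathway, had 65.2, 61.5 and 55.3. The order of replicates seen at the top held at pnt, and not at the other two.

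Over all 880 loci the strength had a median of 63.7, quartiles of 46.9 and 79.4, and a range of 12.5 to 99.9. There were 84 loci at 90 or above, and 9 belonged to the 100 strongest shared loci of the series. The order of the loci was alike in the lists: Spearman's rho across the loci was 0.851 between replicates 1 and 2, 0.853 between 1 and 3, and 0.855 between 2 and 3, over 880 loci of shared libraries. The median span of a locus's summits was 34 bp, a value that the joining of summits limits, and it was 30 to 35 bp at the other positions. Of the 880 loci, 874 (99.3%) lay in a peak of the conservative list of the series, against 99.2% of the other shared loci.

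The loci were slightly weaker than the other shared loci as a whole, though not than the intergenic ones among them. In replicates 1 to 3 they had median percentiles of 70.5, 68.5 and 56.2, against 74.3, 72.2 and 59.8 for the 2866 other shared loci. The difference was −3.66 percentile points ± 0.105 (SD, n = 3), negative in 3 of 3 replicates, with an exact two-sided sign-flip permutation p of 0.25. With 3 replicates this test cannot go below 0.25, so none of the comparisons by replicate here can reach 0.05. The difference was −2.30 without replicate 3. With the stronger 50% of each list it was −9.05. Percentiles were ranked anew within that part, so the same gap spans more points and the 2 scales differ. The 614 intergenic loci had 69.6, 67.6 and 54.8 in replicates 1 to 3, each slightly below the value of the described loci, and this difference was not tested.

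Among introns, strength was lower the farther the class lay from starts. The 657 intronic loci at 500 to 2000 bp had median percentiles of 74.7, 73.5 and 60.9 in replicates 1 to 3. The difference of the loci at 2000 to 10000 bp from them was −4.62 ± 0.420 (SD, n = 3, exact permutation p = 0.25). With the stronger 50% of each list, ranked anew, it was −8.13, which is not on the same scale. The 315 loci over 10000 bp away had 68.5, 64.7 and 52.9, and the difference from these was 3.05 ± 0.924 (SD, n = 3, exact permutation p = 0.25). This last value was smaller without replicate 2 (1.48) and with summits joined within 50 bp (1.89). With the stronger 50% of each list, again ranked anew, it was 1.74. Promoter loci, within 500 bp of a start, had 78.2, 76.5 and 65.6. Both differences had 1 sign in all 3 replicates, and the spread of each was smaller than the difference. The same loci were measured in every replicate, here and in the comparison with the other shared loci. The SD is therefore that of repeated measurement of these loci and does not describe the spread among loci.

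**Figure D1:**
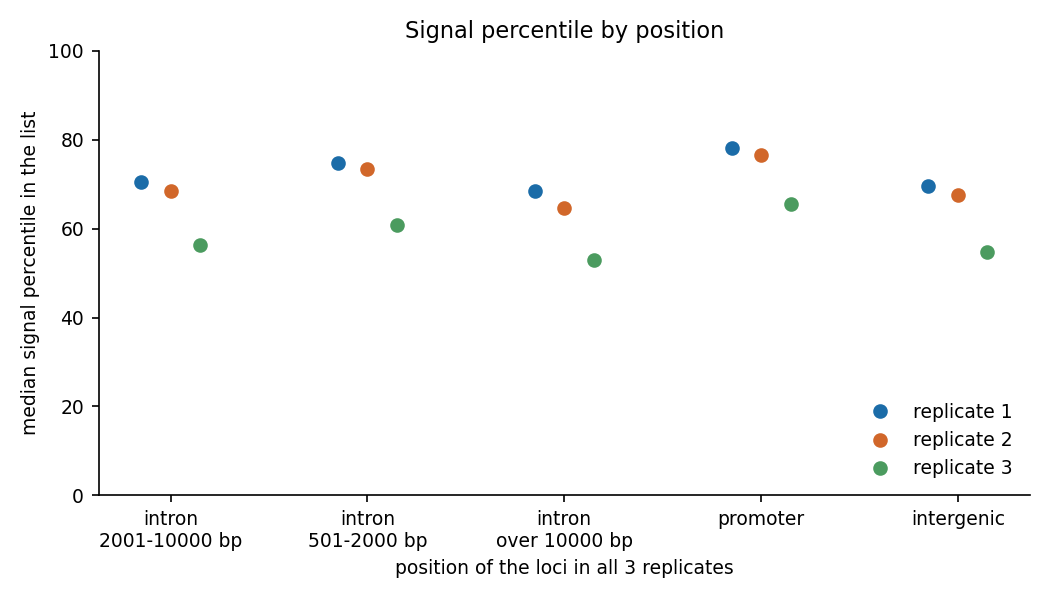
Median percentile of the deposited signal within each replicate's list (vertical axis) for loci found in all 3 replicates, by position (horizontal axis); each point is 1 replicate. In every replicate the loci at 2000 to 10000 bp (70.5, 68.5 and 56.2) sit below those at 500 to 2000 bp and above those over 10000 bp from starts.

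The loci at the edges of the distance rule had ordinary strengths. Just inside the lower bound were a site in fru, at the bound itself, and one in CG12576 at 2005 bp, with strengths of 58.2 and 52.8. Just outside were CG5521 at 1999 bp and Abd-B at 1994 bp, with 52.2 and 44.6. At the far edge, NetA at 9933 bp and Hs6st at 9920 bp lay inside with 70.7 and 58.2, and Efa6 at 10007 bp and CG43658 at 10045 bp lay outside with 79.4 and 35.8.

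The density of sites fell with distance from starts. Intron DNA that the rule could pick came to 24.3 Mb, called eligible intron here. It held 66.3 summits per Mb in replicate 1, 63.2 in replicate 2 and 44.8 in replicate 3, against 100.9, 98.0 and 68.3 in introns at 500 to 2000 bp. The log2 ratio was −0.62 ± 0.015 (SD, n = 3), a ratio of 0.653 (exact permutation p = 0.25). Against introns over 10000 bp from starts, which held 31.9, 31.1 and 21.1 summits per Mb in replicates 1 to 3, the log2 ratio was 1.06 ± 0.029 (SD, n = 3), or 2.08 times as many (exact permutation p = 0.25). In each replicate the 3 classes stood in the same order.

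In steps of 1 kb, loci in all 3 replicates fell from 40.9 per Mb at 2000 to 3000 bp over 37.7 at 5000 to 6000 bp to 30.1 at 9000 to 10000 bp. At 500 to 1000, 1000 to 1500 and 1500 to 2000 bp the values were 66.8, 52.2 and 50.7. The median distance of the 880 loci was 4422 bp, against 4690 bp for eligible intron. The fall inside the described range was thus smaller than that from 500 to 1000 bp down to 2000 to 3000 bp.

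**Figure D2:**
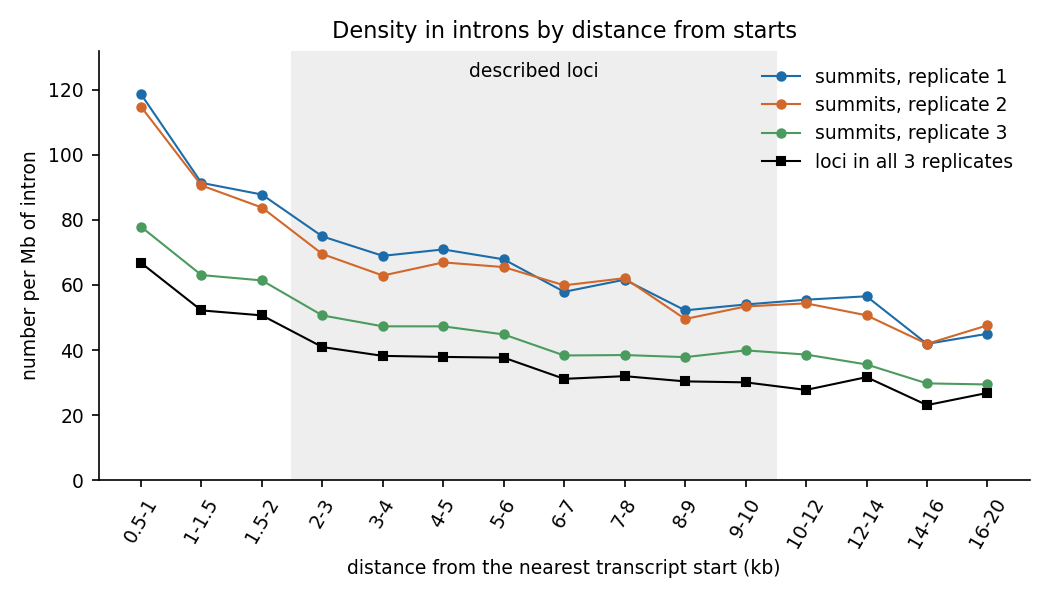
Summits per Mb of intron in each replicate, and loci found in all 3 replicates per Mb (vertical axis), by distance from the nearest transcript start in kb (horizontal axis, bins of unequal width); the grey band marks 2000 to 10000 bp. Loci in all 3 replicates fell from 40.9 per Mb in the nearest bin of the band to 30.1 in the farthest.

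A site in these introns was found again in the other replicates about as often as elsewhere. Of the 1997 loci of this position seen in any replicate, 880 (44.1%) were in all 3, 421 in 2 and 696 in 1, against 40.8% in all 3 among the 7017 loci of other positions. The share was 46.1% for introns at 500 to 2000 bp, 43.5% for introns over 10000 bp and 37.6% for promoters. Median peak widths were 327, 376 and 360 bp in replicates 1 to 3, against 330, 376 and 360 bp at promoter loci (difference −1 ± 1.73 bp, SD, n = 3, exact permutation p = 1). This comparison says little, since in replicates 2 and 3 both medians are the most common width of the list. The share of peaks with exactly that width (390, 376 and 360 bp) was 46.5%, 60.7% and 81.8% in replicates 1 to 3, against 39.9%, 49.5% and 69.4% at promoter loci, so it was higher in 3 of 3 replicates. Median widths were 269, 232.5 and 234.5 bp in the strongest 220 of the described loci, and 390, 376 and 360 bp in the weakest 220. Promoter loci were stronger, and the shares were not matched for strength.

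The X chromosome held the most of the described loci for its eligible intron. It had 215 loci in 4.89 Mb of eligible intron, or 44.0 per Mb, against 37.8 on 3L (186 loci), 36.9 on 2R (149), 33.7 on 3R (187) and 32.1 on 2L (143). Chromosome 4 had none in 0.338 Mb and the Y none in 0.0831 Mb. In summits per Mb the X was higher than the other arms by a log2 ratio of 0.36 ± 0.041 (SD, n = 3; ratio 1.28, higher in 3 of 3 replicates, exact permutation p = 0.25). The other introns and promoters had similar X ratios in shared loci per Mb, 1.36 at 500 to 2000 bp, 1.42 over 10000 bp and 1.35 at promoters, while intergenic DNA had 0.599. These ratios pool all other arms. In introns over 10000 bp from starts 2L was above the X, with 28.1 and 23.1 shared loci per Mb. There 2R had 14.9, 3L 15.8 and 3R 15.7. The sex of the animals was not collected, and the part of the number of X copies in these values was not tested.

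First introns were richer in loci than later introns. Of the 880 loci, 543 (61.7%) lay in the first intron of at least 1 transcript, against 47.3% of eligible intron, which is 47.3 loci per Mb in first introns and 26.4 in introns that are never first. With the stricter definition, first in every transcript that spans the site, the shares were 34.0% of loci and 28.4% of eligible intron. The introns were long, with a median of 11789 bp and quartiles of 6740 and 22088 bp. The nearest start belonged to the host gene for 595 loci (67.6%), with the locus downstream of that start for 452 and upstream of it, inside a longer transcript, for 143. For 285 loci the nearest start was that of another gene.

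The loci fell in 537 host genes, 12.4% of the 4341 genes with eligible intron, and the share was likewise 12.4% among the 4224 protein-coding ones. There were 833 loci with 1 host, 42 with 2 and 5 with 3 overlapping hosts. Host genes had far more eligible intron than the others, with medians of 12817 and 1064 bp, and longer introns give the rule more chances. Most hosts (324) held 1 locus, 213 held at least 2 and 41 at least 4. The next shared locus of any position was at a median of 3884 bp, and 144 loci (16.4%) had one within 1000 bp.

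The starts of host genes were also occupied more often than those of other genes. A shared locus lay within 500 bp of a start for 153 of the 537 hosts (28.5%), against 462 of the 3804 other genes with eligible intron (12.1%) and 14.2% of all 4341. Among genes with more than 20000 bp of eligible intron the shares were 37.0% of 165 hosts and 9.52% of 168 others. Between 10000 and 20000 bp they were 24.5% of 163 hosts and 14.9% of 323 others, and between 5000 and 10000 bp 25.6% of 125 hosts and 10.1% of 514 others. Between 2000 and 5000 bp they were 26.0% of 73 hosts and 16.4% of 543 others. Below 2000 bp they were 9.09% of 11 hosts and 11.4% of 2256 others. Hosts had more annotated starts (median of 2, against 1), and this was not matched.

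A few genes held clusters of loci. shn, a zinc finger partner of the BMP pathway's Smad proteins, and Mnt, a repressor that competes with Myc for their common partner Max, had 8 each. In shn, which has a bound start as well, strengths ran from 45.5 to 96.3 over 30.7 kb. In Mnt, also with a bound start, they ran from 31.7 to 89.7 over 21.4 kb. kibra held 7 loci over 15.04 kb, with strengths from 26.2 to 97.6, or 547 loci per Mb of its eligible intron, and none at its start. Raf held 5 within 6.39 kb, all downstream of the same start and 63.2 to 99.1 in strength.

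Hr4, a nuclear receptor of the ecdysone response, held 6 loci with a median strength of 87.7. lncRNA:CR44357 held 7 and the overlapping CG1677 held 6 of those, and lncRNA:CR44999 held 6, with a median of 76.9. The loci of lncRNA:CR44357 were spread over 130.7 kb, at 59.2 per Mb of its 118 kb of eligible intron, against 36.3 per Mb over all genes. Genes with many loci thus differed widely in how far apart these lay.

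By gene list, pathway and hormone genes carried more loci per Mb of eligible intron than all genes together (36.3 per Mb), and ion channel genes carried few. The lists were chosen with earlier results of these data known and several genes are in more than 1 list, so the counts are a description without a test. Over all 4341 genes 12.4% were hosts, and the median strength of the loci was 63.7.

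The list of ecdysone response and nuclear receptor genes had 19 hosts of 31 genes with eligible intron, 39 loci and 84.1 loci per Mb, with a median strength of 70.8. Eip75B and Hr4 led it at 98.1 and 97.1. Eip63E, an ecdysone-induced cyclin-dependent kinase, reached 93.2, and E23, an ecdysone-induced membrane transporter, reached 92.7.

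The list of growth control by Fat, Dachsous and Hippo had the highest density, 166 loci per Mb, with 8 hosts of 24 genes and 25 loci. Beyond genes of that pathway it counts the growth regulators Myc and Mnt. kibra led with 97.6, ahead of the growth regulator Myc at 96.0, ex, a membrane-bound activator of Hippo signalling, at 91.0, and Mnt at 89.7. Mnt and kibra alone held 15 of those 25 loci. Mnt held 8 and Myc 3, and the density without these 2 genes was not calculated. Wnt, Hedgehog and BMP genes had 113 loci per Mb, with 16 hosts of 43 and 45 loci. In that list the BMP ligand dpp reached 96.8, shn 96.3, the Ski-family gene Snoo 95.0 and the Wnt receptor gene fz2 94.7. EGFR and Ras genes had 104 loci per Mb and 11 hosts of 27, with Raf at 99.1, the repressor cic at 94.2, pnt at 91.3 and the secreted inhibitor aos at 89.3.

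Insulin and TOR genes had 9 hosts of 24 and 99.8 loci per Mb. PRAS40, an inhibitor of TOR complex 1, reached 96.4, and the transcription factor foxo, which insulin signalling keeps out of the nucleus, reached 93.4. The phosphatase subunit gene wdb reached 92.3. Polycomb, Trithorax and insulator genes had 8 hosts of 36 and 84.0 loci per Mb. Their median strength of 77.4 was above that of all loci. Beside trx at 98.5 and Psc at 97.7 were the nucleosome remodeller Mi-2 at 96.2 and the transcription factor grh at 89.9.

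Circadian clock genes had 5 hosts of 13 and 68.9 loci per Mb, among them the repressor vri at 88.6 and the activator Pdp1 at 83.6, both bZIP factors of the clock's second loop. tws, a phosphatase subunit, reached 84.3, and the kinase gene nmo reached 54.6. The Notch list had 4 hosts of 15, which were mam at 98.4, nkd at 93.1, the glycosyltransferase fng at 69.5 and the protease kuz at 41.8. Of these, nkd is also counted in the Wnt, Hedgehog and BMP list, and it held 2 of the 9 loci of the Notch list. The density of the Notch list was 53.8 loci per Mb. Glial and blood-brain barrier genes had 2 hosts of 15, pnt and the adhesion molecule Nrg (63.1), at 53.2 per Mb.

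Structural and neuronal genes were nearer the level of all genes or below it. Actin, myosin and muscle genes had 9 hosts of 34 and 47.9 loci per Mb, with a median strength of 53.5. The fascin gene sn reached 81.6, the muscle Z-disc gene Zasp52 80.5, the Rac activator mbc 79.7 and the myosin gene jar 75.6. Cell adhesion and axon guidance genes had 24 hosts of 61, but on 1.32 Mb of eligible intron that was 31.8 per Mb. Their leading sites were in babos at 94.4, the guidance molecule Sema1a at 92.2, the integrin mew at 87.8 and the teneurin Ten-a at 86.0.

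Imaginal disc and homeotic patterning factors had 7 hosts of 61 and 23.9 loci per Mb, with bowl at 91.3, Antp at 75.1, hth at 71.6 and sr at 66.0. Cell death and autophagy genes had 1 host of 17, the kinase gene Atg1 at 83.0, which is also in the insulin and TOR list. With 1 locus in 0.0585 Mb of eligible intron, their density of 17.1 loci per Mb says little. Ion channels had 1 host of 51, the sodium channel gene NaCP60E at 89.8, which is 2.14 loci per Mb in 0.468 Mb of eligible intron. Whole animals contain many cell types, and the part of gene activity or open chromatin in these densities was not tested.

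**Figure D3:**
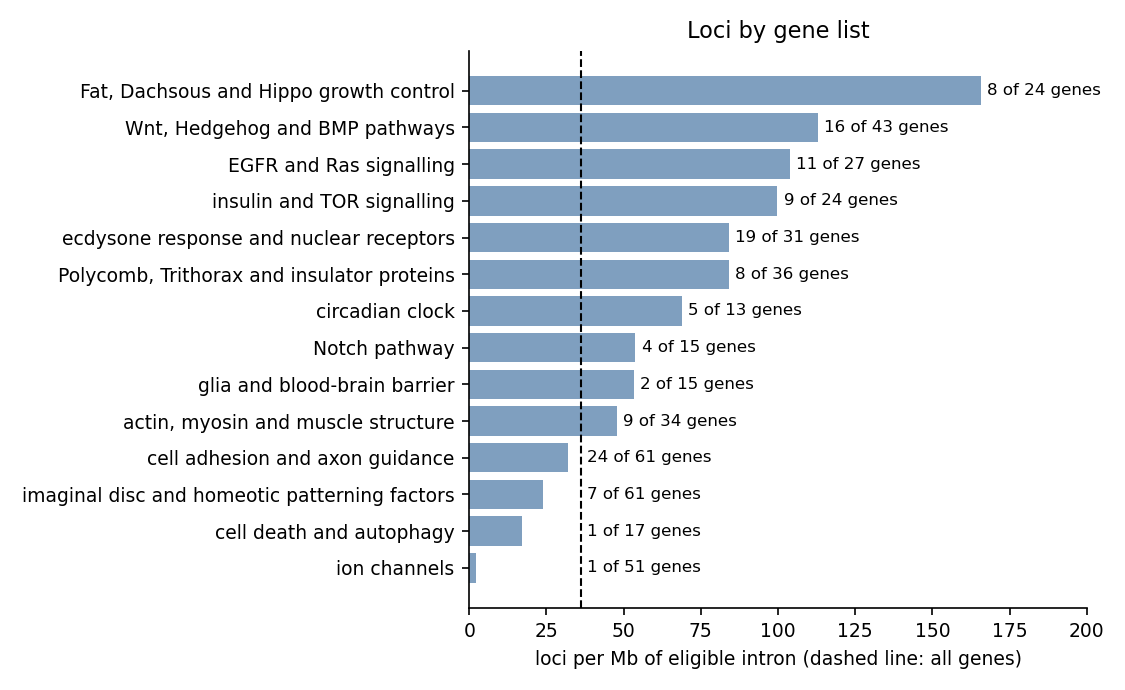
Loci per Mb of eligible intron (horizontal axis) for 14 gene lists (vertical axis), with the number of host genes among the genes with eligible intron; the dashed line is the value of all 4341 genes. The list of Fat, Dachsous and Hippo growth control, which also counts Myc and Mnt, had 166 per Mb and ion channels 2.14, beside 36.3 for all genes.

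The centres of the loci were poor in G and C. The bases within 100 bp of the centre had a median GC content of 32.8% with quartiles of 29.4 and 36.8%, against 42.3% in windows of the same length 500 bp to either side and 40.3% over 112226 windows tiled through eligible intron. At 740 of 880 loci (84.1%) the centre was below the mean of its flanks, at 611 (69.4%) below both and at 82 above both. The median difference was −8.96 percentage points, with quartiles of −14.7 and −3.42. With each replicate's own summits in these introns, the median differences were −6.47, −8.21 and −8.71 points in replicates 1 to 3.

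The dip was narrow and had raised shoulders. In 21-bp windows the mean GC content of the 880 loci was 29.0% at the centre, rose to 47.1% at 220 bp to the left and was 45.8% at 200 bp to the right, and came down to 39.8% and 40.4% at 1000 bp. Loci of the same position found in 2 replicates had 32.0% at the centre, and those found in 1 had 36.4%. The dip was not particular to this distance: the centre value was 28.6% for introns at 500 to 2000 bp, 27.7% for introns over 10000 bp and 29.8% for promoters. It also did not follow strength, with median GC contents within 100 bp of the centre of 33.3, 32.8, 32.8 and 33.1% in groups of 220 loci from the strongest to the weakest. Runs of at least 10 A/T bases were present at 78.5% of the centres, 51.1% of the flanks and 57.0% of the tiled windows.

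**Figure D4:**
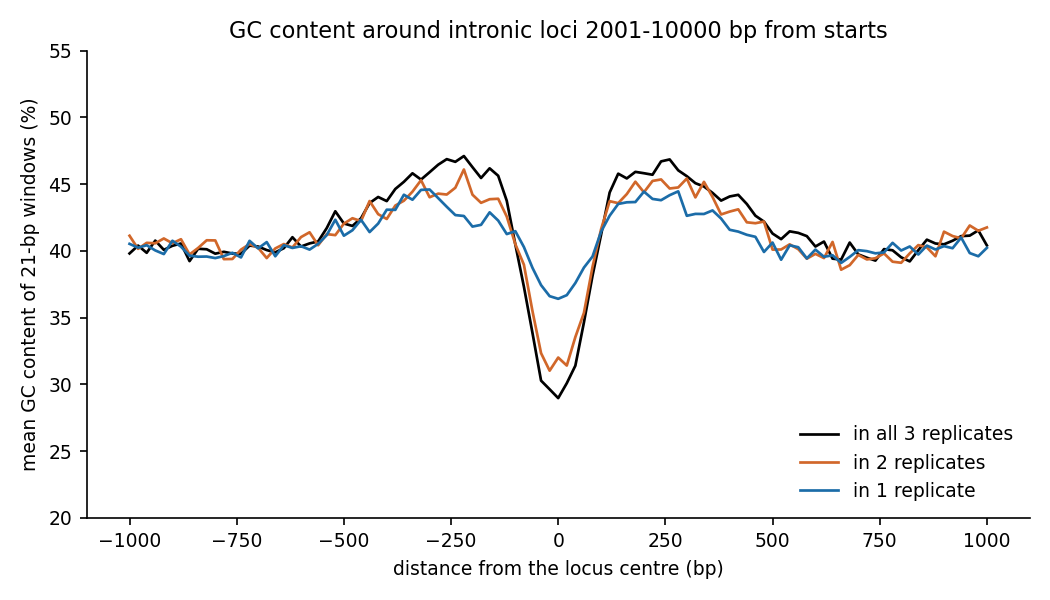
Mean GC content of 21-bp windows (vertical axis, percent, not starting at 0) against distance from the locus centre in bp (horizontal axis), for intronic loci 2000 to 10000 bp from starts found in all 3, in 2 or in 1 replicate. The line of the 880 loci in all 3 falls to 29.0% at the centre, the others to 32.0% and 36.4%.

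Of 27 words searched on both strands within 100 bp, mostly words of known factors, 6 were more frequent at the centre than in the flanks and 21 less. The lower GC content of the centres was not corrected for, and ACTGCA, an arbitrary word searched for reference, was likewise less frequent there, at 14.0% of centres, 15.4% of flanks and 11.7% of tiled windows. Among the 6 were TATAAA, at 39.7% of centres, 20.5% of flanks and 23.8% of tiled windows, and AAAAAAA, at 35.7, 21.8 and 20.4%. The homeodomain word TAATTA was at 16.6, 13.1 and 14.8%, and the AP-1 word TGANTCA at 5.80, 4.77 and 4.47%. GAGAG, a word of the GAGA factor, was at 22.4% of centres, 26.3% of flanks and 21.2% of tiled windows. The nuclear receptor word AGGTCA was at 4.66, 4.38 and 4.83%, close to even. TATCGATA, the word of DREF and BEAF-32, was at none of the 880 centres, which allows a share of up to 0.341%. It was rare around them too, at 0.114% of flanks and 0.407% of tiled windows.

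All 7-base words, each taken with its reverse complement, were then ranked by how much more often they occurred at the centres than in the flanks of the 329 loci on 2L and 3L, and read on the 551 loci of the other arms. AAAATAT led, at 39.5% of centres and 13.4% of flanks on the ranked arms, and 25.2 and 13.8% on the others. Of the 15 leading words 14 had no G or C, and all 15 were also more frequent at the centres on the other arms. Words of A and T alone are more frequent in DNA of lower GC content, which was not corrected for. Their agreement between arms therefore says little beyond the dip in GC content.

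A second kind of word contained G and C. Among words with at least 2 of these bases, CAGTGTA (reverse TACACTG) led, at 10.03% of centres and 1.06% of flanks on the ranked arms, and 11.1 and 1.72% on the others. CAGTGCA (reverse TGCACTG) was at 14.2% of centres and 4.90% of flanks on the other arms, and CACTGAG at 9.62 and 1.45%. Of the 8 leading words of this kind these 3 and CACTGTA hold the core CACTG on one strand, and 4 do not. Among those 4, on the other arms, AGAGAAA was at 12.3% of centres and 6.72% of flanks, ACTGAAA at 9.62 and 6.35%, GAGAAAA at 15.2 and 6.90%, and CTGTGCA at 7.08 and 2.90%. The pattern TNCACTG, in which N is any base, was put together after these values were seen, so what follows is a description. It was sought on both strands, its reverse being CAGTGNA.

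The pattern was within 100 bp of the centre at 258 of the 880 loci (29.3%), against 11.5% of the flanks and 9.78% of the tiled windows. With each replicate's own summits in these introns the shares were 25.8, 25.4 and 27.6% in replicates 1 to 3. Loci of the same position found in 2 replicates had 23.8%, and those found in 1 had 18.0%. Other positions carried it too, at 22.5% of loci in introns at 500 to 2000 bp, 28.9% in introns over 10000 bp, 32.7% in intergenic DNA and 18.2% at promoters. In groups of 220 loci from the strongest to the weakest the shares were 32.3, 32.7, 25.9 and 26.4%.

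The word had a side and a direction. Copies with the CACTG end facing the centre numbered 27 to 48 per bin of 20 bp, summed over the loci, at 60 to 120 bp on either side. They numbered 7 or 8 per bin within 40 bp of the centre and 1 to 8 per bin at 300 to 400 bp. Between 40 and 140 bp from the centre, 305 copies faced inward and 107 outward, a ratio of 2.85. Between 300 and 400 bp, 41 faced inward and 56 outward. Inward copies at 40 to 140 bp stood on both sides of the centre at 43 loci, on 1 side at 208 and on neither at 629, so 28.5% had at least 1.

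**Figure D5:**
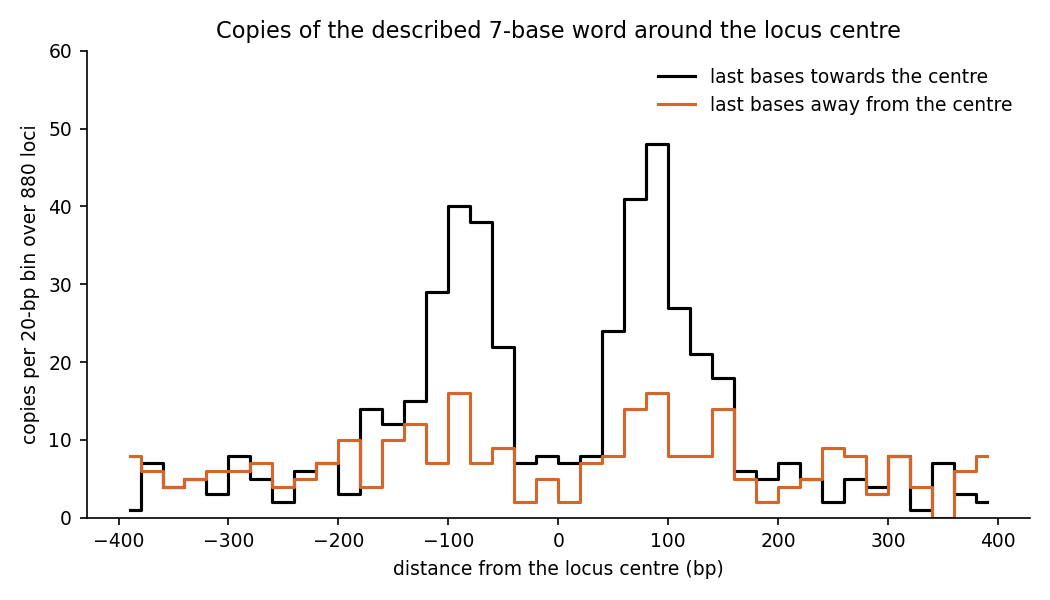
Copies of TNCACTG per 20-bp bin, summed over the 880 loci (vertical axis), against distance from the locus centre in bp (horizontal axis), by direction: the CACTG end of the word towards the centre or away from it. Inward copies peak at 40 and 48 per bin at 80 to 100 bp on the left and right, where outward copies number 16 and 16.

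Among the loci with an inward copy on both sides, 3 strong ones show the arrangement. Their 291 bases follow in the same way, with these copies of TNCACTG on the left and CAGTGNA on the right in capitals.
Eip75B (chr3L:18009032-18009322, plus strand): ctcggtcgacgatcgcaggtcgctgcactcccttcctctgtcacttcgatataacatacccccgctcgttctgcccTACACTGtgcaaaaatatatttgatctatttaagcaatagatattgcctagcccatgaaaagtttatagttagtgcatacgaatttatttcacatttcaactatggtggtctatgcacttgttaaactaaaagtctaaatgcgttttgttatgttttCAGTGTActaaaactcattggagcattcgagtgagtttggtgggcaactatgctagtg
Gug (chr3L:8458179-8458469, plus strand): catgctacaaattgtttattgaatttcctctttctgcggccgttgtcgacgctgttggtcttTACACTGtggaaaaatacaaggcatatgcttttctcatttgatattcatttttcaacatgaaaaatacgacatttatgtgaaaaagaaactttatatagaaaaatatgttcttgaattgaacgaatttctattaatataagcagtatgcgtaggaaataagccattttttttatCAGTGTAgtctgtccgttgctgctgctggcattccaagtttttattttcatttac
Prp16 (chrX:14218029-14218319, plus strand): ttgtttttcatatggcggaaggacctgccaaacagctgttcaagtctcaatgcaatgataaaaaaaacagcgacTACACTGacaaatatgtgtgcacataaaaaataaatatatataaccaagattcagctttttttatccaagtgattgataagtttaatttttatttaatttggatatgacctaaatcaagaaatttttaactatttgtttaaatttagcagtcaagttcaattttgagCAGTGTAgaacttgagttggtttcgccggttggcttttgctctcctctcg
In the Eip75B locus the words lay 66 bp to the left and 91 bp to the right of the centre, and the 150 bases between them were 28.7% GC. In Gug, which encodes the corepressor Atrophin, they lay 80 and 94 bp away around 167 bases of 24.6% GC. In Prp16, a splicing helicase gene on the X, they lay 68 and 99 bp away around 160 bases of 21.9% GC. The signals were 651, 477 and 456 in replicates 1 to 3 at Eip75B, 540, 476 and 344 at Gug, and 498, 423 and 351 at Prp16. All 3 sites had TACACTG on the left and CAGTGTA on the right.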

How the data were processed

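The 3 samples are ChIP-seq replicates of 1 group, numbered in the labels. Per the labels, chromatin was sonicated and pulled down with an anti-GFP antibody, and all lists are on build dm6. The authors deposited a ranked and a thresholded peak list per replicate, named for the irreproducible discovery rate (IDR). The aligner and peak caller, with versions: not given in the sources used here. The deposited signal of a peak has no stated scale and served only to rank and describe peaks. The deposited score of a peak is a scaled IDR, at least 830 in the thresholded lists, which corresponds to an IDR of 0.01. The deposited summit offset gave each summit. Read depth is unknown, and list length, the only trace of it, does not measure the precision of a value.

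Gene models were Ensembl release 115 without transposable elements, and sequence was RefSeq Release 6, the same build. Coordinates are 1-based. Eligible intron is all DNA that meets the rule on position. Replicate values were tested with an exact sign-flip permutation (Python 3.11.15, numpy 2.4.6, scipy 1.17.1), checked on simulated data. Of 606 listed symbols, 8 had no match and 11 matched by synonym. The members, gene lists and tests were chosen with earlier results of these data known. Named are the 15 strongest and 3 weakest loci, the 8 genes with most loci, the pair of loci nearest each distance bound, and up to 4 hosts per list by strength. Loci for the TNCACTG sequences were chosen after their values were seen. Alternatives changed the joining, the threshold, the gene models, the window and the replicates used.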

Additional observations from a re-analysis of the deposited data

How the results depend on the processing

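In 139 recalculations of 13 values, 2 changed direction, and 18 shares or counts, which have no test, moved beyond the tolerance set for them. The other 119 were not reversed or, for shares and counts, stayed within that tolerance, and some of them changed in size. They include the density ratios under other ways of joining, whose outcome was fixed. The reversals were of the peak width against promoter loci, −1 bp as reported, which was 10.3 bp with summits joined within 50 bp, and between 0 and 22.5 bp with 1 replicate left out (22.5 bp without replicate 2). It was −20 bp with the stronger 50% of each list. With the stronger 50% of each list the number of loci was 481 and of host genes 347. Leaving out 1 replicate gave 943 to 1171 loci and 560 to 627 host genes, the highest without replicate 3, the shortest list. The share with GAGAG was 10.45% in windows of 50 bp and 47.8% in windows of 200 bp on either side. The share in the first intron was 60.5% with summits joined within 50 bp, 63.6% with the stronger 50% of each list, 62.1% with the ranked lists, 62.7% with protein-coding models, 61.4 to 63.5% with 1 replicate left out, and 34.0% where every transcript had to agree. The signal percentile difference from the other shared loci was −2.30 without replicate 3, against −3.66 as reported. The difference from introns over 10000 bp from starts was 1.48 without replicate 2, against 3.05 as reported. With the stronger 50% of each list, percentiles were ranked anew. There the differences from the other shared loci and from introns at 500 to 2000 bp were −9.05 and −8.13. They are not on the scale of the reported values (−3.66 and −4.62). Density ratios kept their direction in every recalculation, also on the 5 large arms only, an alternative added after seeing the data. They were taken from each replicate's own summits, so alternatives in the joining of summits or the overlap of peaks could not change them. The GC difference, likewise added later, stayed between −9.20 and −8.96 points, and the share with TNCACTG was 7.39% in windows of 50 bp and 46.7% in windows of 200 bp. No paired analysis was possible because there is 1 group only, so no replicate number pairs samples of 2 groups. The comparisons between positions were made within each replicate throughout. Depth is unknown, so sites missing from a list were not shown to be unbound.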
